A study of Cricetulus griseus with 3 samples.

Results

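Glycolysis splits glucose into pyruvate in the cytosol. Its first steps spend ATP to phosphorylate and split the sugar, and its later steps return ATP and NADH. Lactate dehydrogenase turns pyruvate into lactate and gives back the NAD+ that the pathway needs, a route that proliferating cell lines are known to use heavily even with oxygen present. The enzymes described here are matched to the human proteins HK2 (UniProt P52789), GPI (P06744), PFKL (P17858), ALDOA (P04075), GAPDH (P04406), PGK1 (P00558), ENO1 (P06733), PKM (P14618) and LDHA (P00338). They were chosen by the human protein that the depositors' BLASTX search paired with each Chinese hamster transcript, and where several transcripts shared a human protein the transcript with the most reads was kept. Some transcripts have fractional read counts, and the table does not show which transcripts share a read. Of 10 enzymes sought, 9 had a transcript, out of 21607 transcripts in the table. The other, TPI1 (P60174), which interconverts the triose phosphates, is not analysed here. All names in capitals are those of the human match. RefSeq names 4 of the 9 transcripts itself, as Gpi, Gapdh, Pgk1 and Ldha.

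The RNA was poly-A selected from material of CHO, a line from Chinese hamster ovary, and each of the 3 preparations gave 1 library. All cells were first held for 16 h in 2 mM thymidine, which stops DNA replication. Midbodies, the remnants of the spindle between dividing daughter cells, and mitotic microtubules both came from cells freed from thymidine for 5 h, arrested in 0.1 ug/ml nocodazole, which depolymerises microtubules, for 4 to 5 h, detached by shaking and then given fresh medium. That last period was 65 min for midbodies and 15 min for mitotic microtubules. Microtubules of interphase came from cells for which the labels give the thymidine block and no later step. Release from thymidine, arrest, shake-off and medium change therefore cannot be told apart from the structure that was purified in any comparison with interphase. Between midbodies and mitosis the same holds for the time in fresh medium. With 1 library per group there is no replicate spread and no test, and every interval below is an exact 95% interval on the reads that covers counting error only.

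In what follows, mitosis and interphase stand for the microtubule preparations of those stages. The libraries held 5134865 assigned reads for midbodies, 8059745 for mitotic microtubules and 12672056 for interphase microtubules. Levels are RPKM, reads scaled to transcript length and to the library's assigned reads. RPKM is relative to the library, so less of an RNA cannot be told apart from more of the others. VIM, the intermediate filament gene of fibroblast-like lines, stood at 239 RPKM in midbodies, 168 in mitosis and 205 in interphase, and PTPRC, EPCAM, ALB and CD3E, markers of other cell types, had at most 4 reads in any library. Of 6 marker genes of dividing cells, 3 were higher in midbodies than in interphase and 3 lower. In mitosis 2 of them were higher than in interphase and 4 lower. KIF23, a kinesin of the midbody, had 274 RPKM in midbodies, 109 in mitosis and 79.0 in interphase, and TOP2A, the topoisomerase of dividing cells, had 238 in midbodies, 195 in mitosis and 121 in interphase. CCNB1, the mitotic cyclin gene, had 68.3 RPKM in midbodies, 62.8 in mitosis and 108 in interphase. The part of cell cycle stage in the values below was not tested.

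Glycolytic enzyme RNA made up a smaller share of the reads in the dividing-cell libraries than in interphase. The 9 transcripts took 0.205% of midbody reads (0.201 to 0.209), 0.210% of mitotic reads (0.206 to 0.213) and 0.328% of interphase reads (0.324 to 0.331). With every transcript matched to these 9 proteins counted, the shares were 0.296% in midbodies, 0.303% in mitosis and 0.467% in interphase. All 9 were lower in midbodies than in interphase, where 55.5% of all transcripts at 1 RPKM or more were, and all 9 were lower in mitosis than in interphase, where 54.7% were. These comparisons share the interphase library. For ALDOA the counting interval included a ratio of 1 in each of them, and its midbody value came out slightly above interphase with other library scaling. For the other 8 the interval lay below 1, where it did so for 45.4% of all transcripts in midbodies and 46.4% in mitosis. Such an interval narrows with read depth, and those shares include transcripts with far fewer reads than the 9 enzymes. No share at the enzymes' level was taken.

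**Figure D1:**
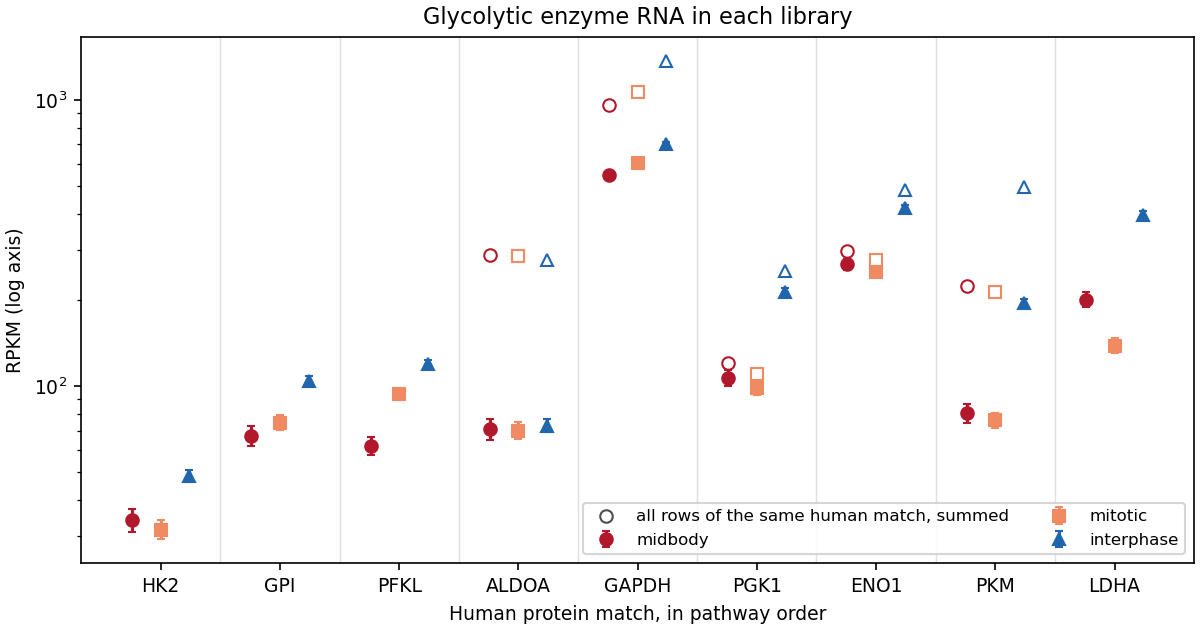
RPKM of the 9 glycolytic enzyme transcripts (log axis) in pathway order, in midbody (circles), mitotic (squares) and interphase (triangles) libraries. Filled symbols are the transcript with the most reads, with exact 95% Poisson intervals, and open symbols are the sum over all transcripts with the same human match; the interphase triangle is the highest filled symbol for every enzyme, by a small margin for ALDOA.

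Hexokinase traps glucose in the cell as glucose 6-phosphate. HK2, the isozyme typical of proliferating cells and muscle, had 34.0 RPKM in midbodies, 31.6 in mitosis and 48.7 in interphase. It was lower than in interphase by a factor of 1.43 in midbodies (1.29 to 1.59) and 1.54 in mitosis (1.41 to 1.69), and the midbody and mitotic values overlapped within counting error. HK2 was the lowest of the 9 enzymes in each library.

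GPI, which converts glucose 6-phosphate to fructose 6-phosphate, had 67.0 RPKM in midbodies, 74.7 in mitosis and 104 in interphase. Its midbody level was below the interphase level by a factor of 1.55 (1.42 to 1.70) and below the mitotic level by 1.12 (1.01 to 1.24).

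PFKL, the liver-type phosphofructokinase subunit, belongs to the enzyme that commits sugar to glycolysis. Its RNA stood at 61.8 RPKM in midbodies, 93.8 in mitosis and 120 in interphase. Midbodies were lowest and the 3 intervals did not meet. The midbody level was lower by a factor of 1.52 than in mitosis (1.39 to 1.66), where it was the lowest ratio of the 9 enzymes, and by 1.93 than in interphase (1.79 to 2.10). Mitotic microtubules were lower than interphase by a factor of 1.27 (1.20 to 1.35).

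ALDOA, the muscle and general aldolase that splits fructose 1,6-bisphosphate, was nearly level across the libraries. The kept transcript had 71.0 RPKM in midbodies, 69.9 in mitosis and 72.9 in interphase. The midbody to interphase ratio was 0.974 (0.881 to 1.08) and the mitotic to interphase ratio 0.959 (0.879 to 1.04). Its reads were divided among 5 transcripts of the same match, whose summed levels were 288 RPKM in midbodies, 285 in mitosis and 277 in interphase. The sum put ALDOA slightly above interphase in both dividing-cell libraries, so its direction turned with the choice of transcripts while its size stayed near 1. Its midbody direction against interphase also turned with the scaling of the libraries, as given below.

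GAPDH, the step that makes NADH, was the most abundant of the enzymes at 548 RPKM in midbodies, 605 in mitosis and 704 in interphase. It ranked 9 of all transcripts in midbodies, 4 in mitosis and 5 in interphase. The midbody level was lower than the mitotic by a factor of 1.10 (1.06 to 1.15) and lower than the interphase by 1.28 (1.24 to 1.33). Besides the named Gapdh transcript, 4 shorter transcripts matched the same human protein. The largest of these had 165 RPKM in midbodies, 176 in mitosis and 298 in interphase. Summed over all 5, GAPDH was at 958 RPKM in midbodies, 1069 in mitosis and 1374 in interphase, a midbody to interphase factor of 1.43.

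PGK1 makes the first ATP of the pathway. Its RNA had 107 RPKM in midbodies, 98.5 in mitosis and 214 in interphase. The interphase level was far from both others, which lay close together: PGK1 was lower than in interphase by a factor of 2.00 in midbodies (1.86 to 2.15) and 2.17 in mitosis (2.05 to 2.31). A shorter transcript shared this match, and was also lower in midbodies than in interphase, with a ratio of 0.347.

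ENO1, the general enolase, had 267 RPKM in midbodies, 252 in mitosis and 420 in interphase. It was lower than in interphase by a factor of 1.57 in midbodies (1.50 to 1.65) and 1.67 in mitosis (1.60 to 1.74). Its midbody level was above the mitotic one by 1.06-fold (1.0 to 1.13). A shorter transcript with the same match had fewer reads, and its midbody to interphase ratio was 0.485.

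PKM, pyruvate kinase of most tissues and of dividing cells, makes pyruvate and the last ATP. The kept transcript had 80.6 RPKM in midbodies, 76.1 in mitosis and 196 in interphase. This was the lowest midbody to interphase ratio of the 9, lower by a factor of 2.43 (2.24 to 2.64), and the mitotic level was lower than the interphase by 2.58 (2.41 to 2.76). Reads were divided among 3 PKM transcripts, which gave midbody to interphase ratios of 0.411, 0.467 and 0.480 and mitotic to interphase ratios of 0.388, 0.442 and 0.465. Summed, they stood at 224 RPKM in midbodies, 213 in mitosis and 498 in interphase. Whether these transcripts differ in the exon choice that separates the M1 and M2 forms was not examined.

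LDHA, the subunit that favours lactate formation, separated all 3 libraries. It had 201 RPKM in midbodies, 139 in mitosis and 397 in interphase. Its reads were whole numbers and no other transcript shared its match. LDHA was 1.45-fold higher in midbodies than in mitosis (1.33 to 1.58), the highest such ratio of the 9, and lower than in interphase by a factor of 1.98 in midbodies (1.85 to 2.12) and 2.87 in mitosis (2.69 to 3.06). PFKL and LDHA thus lay on opposite sides of the mitotic level in midbodies, and the other 7 enzymes were within a factor of 1.12 of it.

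**Figure D2:**
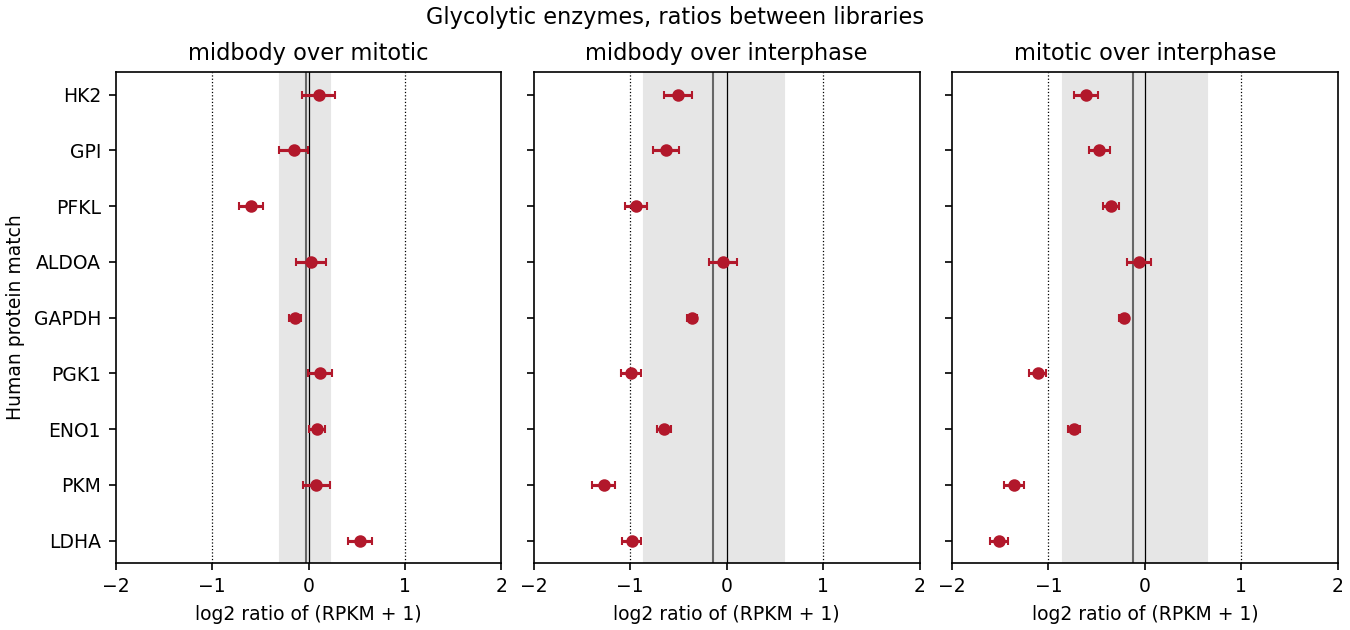
Log2 ratios of (RPKM + 1) for the 9 enzymes in 3 comparisons. Points are the kept transcripts with exact 95% counting intervals, the grey band is the middle 50% of all transcripts compared with their median as a grey line, and dotted lines mark 2-fold; in midbodies over mitosis PFKL (-0.59) and LDHA (0.53) lie outside the band, and in both comparisons with interphase the 9 points lie at or left of -0.04.

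The enzymes were set against the whole table on the log2(RPKM + 1) scale. This scale understates ratios, slightly for the 9 enzymes and strongly for transcripts near 1 RPKM. For midbodies over mitosis the 9 enzymes had a median of 0.08, where all 13131 transcripts at 1 RPKM or more had a median of -0.03. None of the 9 was at least 2-fold higher and none at least 2-fold lower, where 2.09% of all transcripts were higher and 1.80% lower. For midbodies over interphase the enzyme median was -0.65, beside -0.15 over 13059 transcripts. PKM, at -1.27, was the only enzyme at least 2-fold lower, where 20.8% of all transcripts were lower, and none was at least 2-fold higher, where 14.7% were. PGK1 at -0.99 and LDHA at -0.98 stood just short of the line. With the transcripts of a match summed, PGK1 crossed it at -1.06 and the count became 2.

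For mitosis over interphase the enzyme median was -0.61, beside -0.13 over 13176 transcripts. LDHA at -1.51, PKM at -1.35 and PGK1 at -1.11 were at least 2-fold lower, 3 of 9 where 20.7% of all transcripts were, and none was at least 2-fold higher, where 16.6% were. Over transcripts at 30 RPKM or more, a level that all 9 enzymes reached, the medians of all transcripts were -0.20 for midbodies over interphase and -0.23 for mitosis over interphase. With 9 enzymes, counts of 1 and 3 are not read as a departure from those shares. The enzyme medians were below those of all transcripts in both comparisons with interphase, and no test bears on that difference.

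The enzymes from GAPDH onward had a median midbody to interphase log2 ratio of -0.98 over 5 transcripts, and those from hexokinase to aldolase -0.57 over 4. In mitosis over interphase the medians were -1.11 and -0.41 for the same enzymes. The ranges overlapped, from -1.27 to -0.36 and from -0.94 to -0.04 in midbodies, since GAPDH was among the least different and PFKL among the most different. This division was described after the values were seen. PGAM1, the phosphoglycerate mutase between PGK1 and ENO1, had 102 RPKM in midbodies, 104 in mitosis and 219 in interphase. Its level was lower than in interphase by a factor of 2.14 in midbodies (2.00 to 2.30) and 2.10 in mitosis (1.98 to 2.22), near the values of PGK1.

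In order of level, GAPDH, ENO1, LDHA and PGK1 held the first 4 places in every library. In midbodies the intervals of PKM, ALDOA, GPI and PFKL met in turn, so their order was not resolved by counting. In mitosis the interval of PGK1 met that of PFKL, and those of PKM, GPI and ALDOA met in turn. In interphase no neighbouring intervals met, with PKM at 196 RPKM above PFKL at 120, GPI at 104 and ALDOA at 72.9. The value of PFKL was below that of ALDOA in midbodies, with intervals that met, and above it in the other libraries, with intervals that did not. The order depends on how transcripts of a match are treated. With them summed, ALDOA was above LDHA and PKM in midbodies at 288 RPKM and above ENO1 in mitosis at 285, but below PKM at 498, ENO1 at 484 and LDHA in interphase, at 277.

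Isozymes of these enzymes did not all follow them. Enolase showed this most clearly. ENO2, the enolase best known from neurons, had 106 RPKM in midbodies, 116 in mitosis and 24.2 in interphase. It was 4.35-fold higher in midbodies than in interphase (3.84 to 4.93) and 4.79-fold higher in mitosis than in interphase (4.28 to 5.38), where ENO1 was lower. The ratio of ENO2 to ENO1 RPKM was 0.395 in midbodies, 0.462 in mitosis and 0.0577 in interphase. ENO3, the muscle enolase, had 15.4 RPKM in midbodies, 20.6 in mitosis and 3.17 in interphase, and was 4.89-fold higher in midbodies than in interphase (3.47 to 6.96). Its reads were divided between 2 transcripts.

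Phosphofructokinase RNA was also divided differently between its isozymes. PFKM, the muscle type, had 20.2 RPKM in midbodies, 28.0 in mitosis and 16.2 in interphase. It was lower in midbodies than in mitosis by a factor of 1.38 (1.21 to 1.59), as PFKL was, but 1.25-fold higher in midbodies than in interphase (1.09 to 1.44), where PFKL was lower. PFKP, the platelet type, had 22.8 RPKM in midbodies, 26.2 in mitosis and 22.7 in interphase, with a midbody to interphase ratio of 1.0 (0.878 to 1.15). The ratio of PFKM to PFKL RPKM was 0.327 in midbodies, 0.299 in mitosis and 0.135 in interphase. A second PFKM transcript had nearly equal reads, and with both summed these ratios were 0.662, 0.606 and 0.275 in the same libraries.

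Among the hexokinases HK1 was lower than in interphase, like HK2, and HK3 was higher. HK1, the general hexokinase, had 54.1 RPKM in midbodies, 51.2 in mitosis and 93.7 in interphase, above HK2 in each library, and was lower in midbodies than in interphase by a factor of 1.73 (1.61 to 1.86). HK3 was far lower in level, with 31 reads in midbodies, 41 in mitosis and 12 in interphase, and 6.38-fold higher in midbodies than in interphase (3.18 to 13.6). ADPGK, which phosphorylates glucose with ADP, had 61.3 RPKM in midbodies, 54.0 in mitosis and 39.2 in interphase, 1.57-fold higher in midbodies than in interphase (1.43 to 1.72).

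Of the lactate dehydrogenases, LDHB, the subunit typical of heart, had 0 reads in all 3 libraries, which allows up to 0.584 CPM in midbodies, 0.372 in mitosis and 0.237 in interphase. A transcript matched to LDHC, the testis subunit, had 134 reads in midbodies, 82 in mitosis and 484 in interphase. Like LDHA it was lowest in mitosis, with a midbody to mitotic ratio of 2.56 (1.93 to 3.42), and it was lower in mitosis than in interphase by a factor of 3.75 (2.97 to 4.80). ALDOC, the brain aldolase, had 2 reads in midbodies, 12 in mitosis and 1 in interphase, and its mitotic to interphase ratio was 18.9 (2.79 to 807).

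**Figure D3:**
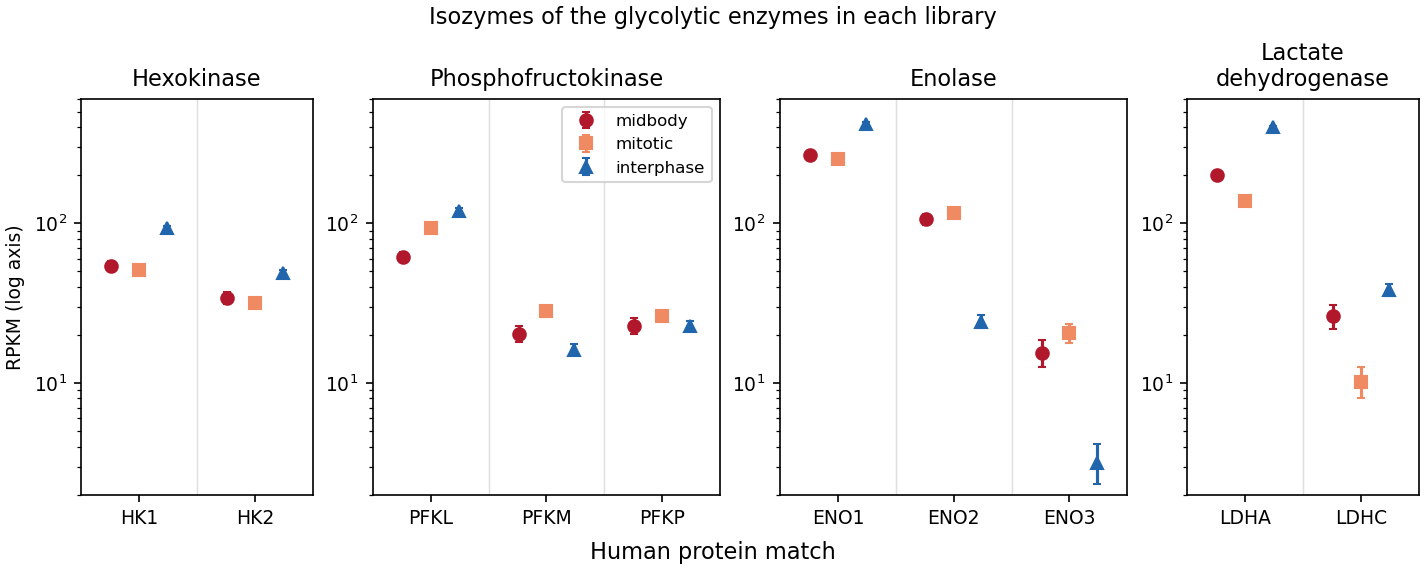
RPKM (log axis) of isozymes of hexokinase, phosphofructokinase, enolase and lactate dehydrogenase in midbody (circles), mitotic (squares) and interphase (triangles) libraries, with exact 95% Poisson intervals. ENO2 at 106 and 116 RPKM in midbodies and mitosis lies above its interphase value of 24.2, whereas ENO1, HK1, HK2, PFKL and LDHA are highest in interphase.

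In all, 19 further glycolytic isozymes and enzymes were listed. All had a transcript, and 10 reached 1 RPKM in midbodies or interphase. Of these 10, ENO2, ENO3 and HK3 stood 2-fold or more above interphase in midbodies and PGAM1 and BPGM 2-fold or more below it, with a median log2 ratio of 0.16. Of all transcripts 14.7% stood that far above interphase and 20.8% that far below it. BPGM, which makes the haemoglobin effector bisphosphoglycerate, was lower by a factor of 2.99 (2.41 to 3.73), with 12.4 RPKM in midbodies, 8.65 in mitosis and 37.1 in interphase. Between midbodies and mitosis LDHC, higher in midbodies, alone of 11 was at least 2-fold apart. Of all transcripts 2.09% were that much higher in midbodies and 1.80% that much lower.

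The carriers at the ends of the pathway went separate ways. SLC2A1, the general glucose transporter GLUT1, had 72.1 RPKM in midbodies, 60.4 in mitosis and 52.4 in interphase. It was 1.19-fold higher in midbodies than in mitosis (1.10 to 1.30) and 1.38-fold higher than in interphase (1.27 to 1.49). SLC16A1, the lactate and pyruvate carrier MCT1, had 26.1 RPKM in midbodies, 25.8 in mitosis and 124 in interphase, lower than in interphase by a factor of 4.77 in midbodies (4.32 to 5.28) and 4.82 in mitosis (4.44 to 5.23). BSG, basigin, the chaperone that carries MCT1 to the cell surface, had 77.3 RPKM in midbodies, 70.1 in mitosis and 138 in interphase, a midbody to interphase factor of 1.79 (1.65 to 1.93) below interphase. The other 5 listed carriers were below 1 RPKM in every library, and SLC16A3, the lactate exporter MCT4, had 1 read in midbodies, 12 in mitosis and 2 in interphase.

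Fructose 2,6-bisphosphate activates phosphofructokinase, and the PFKFB enzymes make and break it. PFKFB3, the form with mainly kinase activity, had 3.57 RPKM in midbodies, 5.95 in mitosis and 16.2 in interphase, lower in midbodies than in interphase by a factor of 4.52 (3.32 to 6.30) and than in mitosis by 1.67 (1.17 to 2.41). PFKFB2, the heart form, had 14.2 RPKM in midbodies, 15.4 in mitosis and 4.81 in interphase, 2.94-fold higher in midbodies than in interphase (2.25 to 3.86). Reads were divided among 7 PFKFB3 and 5 PFKFB2 transcripts, and summed they had midbody to interphase log2 ratios of -1.76 and 1.56. TIGAR, a phosphatase that lowers fructose 2,6-bisphosphate, had 76.8 RPKM in midbodies, 64.0 in mitosis and 54.5 in interphase, 1.41-fold higher in midbodies than in interphase (1.31 to 1.52). PFKFB1 had 19.8 RPKM in midbodies, 17.2 in mitosis and 14.2 in interphase.

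Of 13 genes listed for pyruvate entry into the mitochondrion, 7 stood 2-fold or more below interphase in midbodies and none 2-fold or more above it. Of all transcripts 20.8% and 14.7% did so, and the list's median log2 ratio was -1.01. The pyruvate carrier genes MPC1 and MPC2 were not among the 7. Their midbody to interphase ratios were 1.04 (0.868 to 1.25) and 0.833 (0.682 to 1.01), with intervals that included 1. PDHA1, the catalytic alpha subunit of pyruvate dehydrogenase, had 16.3 RPKM in midbodies, 20.0 in mitosis and 122 in interphase, lower in midbodies than in interphase by a factor of 7.48 (6.10 to 9.26). PDHB, the beta subunit of the same enzyme, was 1.37-fold higher in midbodies than in interphase (1.25 to 1.50), with 75.1 RPKM in midbodies, 71.8 in mitosis and 55.0 in interphase. DLD, the shared dehydrogenase subunit, was lower than in interphase by a factor of 2.04 (1.81 to 2.30).

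The kinases and phosphatases that switch pyruvate dehydrogenase off and on made up 5 of those 7. PDK1, the hypoxia-responsive kinase, had 10.7 RPKM in midbodies, 28.3 in mitosis and 23.9 in interphase, so midbodies were lowest. It was lower in midbodies than in mitosis by a factor of 2.65 (2.08 to 3.41), and it alone of the 13 was at least 2-fold apart in that comparison. Of all transcripts 1.80% were at least 2-fold lower there and 2.09% higher. PDK2 and PDK4 were lower in midbodies than in interphase by factors of 2.34 (1.41 to 4.10) and 2.41 (1.69 to 3.51), and the phosphatases PDP1 and PDP2 by 6.58 (3.68 to 13.0) and 3.79 (2.58 to 5.76). PDP1 had only 12 midbody reads. PDK3, the most abundant kinase, was 1.26-fold higher in midbodies than in interphase (1.15 to 1.38), with 55.6 RPKM in midbodies, 41.2 in mitosis and 44.2 in interphase.

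**Figure D4:**
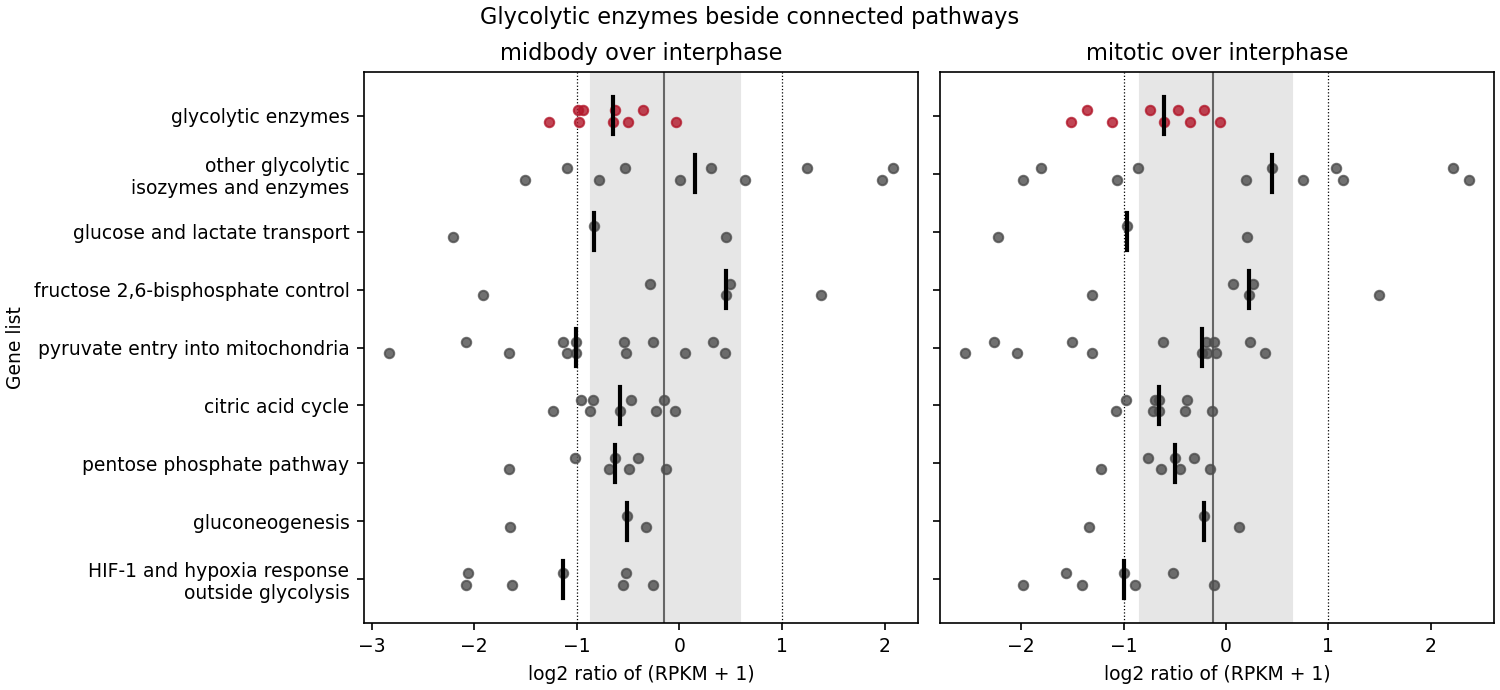
Log2 ratios of (RPKM + 1) for the glycolytic enzymes (red) and 8 connected gene lists (grey), for midbodies over interphase and mitosis over interphase. Each point is a gene at 1 RPKM or more in a compared library, thick bars are list medians, the grey band and line are the middle 50% and the median of all transcripts, and dotted lines mark 2-fold; the glycolytic median of -0.65 in midbodies lies beside -0.58 for the citric acid cycle and -0.62 for the pentose phosphate pathway.

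Neighbouring pathways of carbon metabolism had similar medians. Of 10 citric acid cycle genes listed, MDH2 is not analysed here, and the other 9 were lower in midbodies than in interphase, with a median log2 ratio of -0.58, as were all 7 of the pentose phosphate pathway, with a median of -0.62. Of all transcripts 55.5% were lower there, with a median of -0.15. In mitosis over interphase these medians were -0.66 and -0.50. In midbodies over interphase the counting interval included a ratio of 1 for SDHB, at 0.973 (0.886 to 1.07). It also did for PGLS of the pentose phosphate pathway, at 0.914 (0.793 to 1.05). In the citric acid cycle, IDH2 (isocitrate dehydrogenase) stood 2-fold or more below interphase in midbodies, the factor being 2.41 (2.06 to 2.84). The entry enzyme CS, citrate synthase, differed less, with 91.1 RPKM in midbodies, 92.3 in mitosis and 101 in interphase. SDHB, a succinate dehydrogenase subunit, had 136 RPKM in midbodies, 106 in mitosis and 140 in interphase, and SDHA, its partner, was at a midbody to interphase log2 ratio of -0.47.

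In the pentose phosphate pathway, which branches off at glucose 6-phosphate and makes NADPH and ribose, TKT, transketolase, had 128 RPKM in midbodies, 122 in mitosis and 208 in interphase. PGD and TALDO1, of the oxidative and the sugar-exchange steps, had midbody to interphase log2 ratios of -0.62 and -0.49. RPIA and RPE, which interconvert the pentose phosphates, were the members at least 2-fold lower there, by factors of 3.27 (2.60 to 4.16) and 2.15 (1.80 to 2.59). In that comparison 20.8% of all transcripts were at least 2-fold lower. In midbodies over mitosis the pathway's median was -0.31, beside 0.08 for the glycolytic enzymes, and this difference was not tested.

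Of the 7 gluconeogenesis genes, which run the route in reverse, 3 reached 1 RPKM. PC, pyruvate carboxylase, had 6.99 RPKM in midbodies, 8.91 in mitosis and 24.1 in interphase and was lower in midbodies than in interphase by a factor of 3.45 (2.86 to 4.17). PCK2 and G6PC3 were at midbody to interphase log2 ratios of -0.33 and -0.51.

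HIF-1 is the oxygen-regulated transcription factor known to activate many glycolytic genes. Of 10 genes listed for it and its response outside glycolysis, VEGFA is not analysed here and 7 passed 1 RPKM. These 7 were all lower in midbodies than in interphase, 4 of them at least 2-fold, beside 55.5% and 20.8% of all transcripts, with a median log2 ratio of -1.13. HIF1A, the regulated subunit, had 17.6 RPKM in midbodies, 20.8 in mitosis and 56.6 in interphase, lower in midbodies than in interphase by a factor of 3.21 (2.87 to 3.61). EGLN1 and VHL, which mark HIF1A for destruction in oxygen, were lower by factors of 4.54 (3.82 to 5.43) and 5.07 (3.44 to 7.73), and the mitophagy receptor gene BNIP3, a HIF-1 target, by 2.30 (1.85 to 2.89). NDRG1, another hypoxia-induced gene, had 223 RPKM in midbodies, 144 in mitosis and 267 in interphase. Like LDHA, and like VIM outside this list, it was lowest in mitosis, and it was 1.55-fold higher in midbodies than in mitosis (1.44 to 1.67). The other 6 of these 7 genes had lower values in midbodies than in mitosis, where the median log2 ratio of all transcripts was -0.03. Of the 6, only HIF1A, at a ratio of 0.848 (0.741 to 0.968), and EGLN1, at 0.682 (0.556 to 0.833), had counting intervals below 1. P4HA1, a collagen prolyl hydroxylase, was at a midbody to interphase log2 ratio of -0.55. RNA levels do not measure HIF-1 protein, which is regulated mainly by its stability.

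The same lists were set beside the glycolytic enzymes in mitosis over interphase, a comparison that shares the interphase library with the one above. Of all transcripts in this comparison, 16.6% stood 2-fold or more above interphase and 20.7% as far below it. The list counts were not tested against those shares. Of 11 further glycolytic isozymes and enzymes past 1 RPKM there, 4 stood 2-fold or more above interphase, ENO2, ENO3, HK3 and ALDOC, and 3 stood as far below it, PGAM1, BPGM and LDHC, with a median log2 ratio of 0.45. SLC16A1 was the only one of 3 carriers past 2-fold. PFKFB2 was past it above and PFKFB3 below, of 5 genes in their group. At pyruvate entry 5 of 13 were 2-fold or more below interphase, PDHA1, PDK2, PDK4, PDP1 and PDP2, and the median was -0.24. IDH2 of 9 citric acid cycle genes, RPIA of 7 pentose phosphate genes and PC of 3 gluconeogenesis genes were past the line below interphase. So were HIF1A, EGLN1 and VHL of the 7 hypoxia genes, with a median of -0.99. In midbodies over mitosis, LDHC, which was higher, and PDK1, which was lower, were the only genes of all 8 lists past 2-fold on the log2(RPKM + 1) scale. Of all transcripts 2.09% were at least 2-fold higher there and 1.80% lower, and these genes are not read as a departure from those shares.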

How the data were processed

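The study's 3 libraries of poly-A RNA were grouped by title, 1 per group, and the Metaphase columns were assigned to Mitosis, the only mitotic sample. Per the file headers, the authors deposited reads per RefSeq transcript and RPKM. The reads are estimated counts, unnormalized by the authors and fractional for 15.7% of transcripts in the midbody, 16.8% in the mitotic and 14.7% in the interphase library (tolerance 1e-06 reads). The deposited RPKM values were computed by the authors from those reads. No aligner, counting program, genome build or strand setting was stated (not given in the sources used here), so reads of paralogs, pseudogenes and overlapping genes may be mixed. Per the file headers the authors paired transcripts with human UniProt proteins by BLASTX, with E-values up to 1e-20, and a match is a likeness of sequence, not proof of orthology. RefSeq symbols came from assembly CriGri-PICRH-1.0 by accession and matched 311 transcripts.

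Ratios were taken as log2(RPKM + 1) over transcripts at 1 RPKM or more in a compared library. Factors, folds and ratios given with an interval are ratios of reads per library total, rounded to whole reads, with exact Clopper-Pearson 95% intervals. Those of summed or further transcripts of a match, given without an interval, are ratios of RPKM. Levels carry exact Poisson 95% intervals. Without molecular identifiers, reads are not independent molecules. A count of 0 allows up to 3 reads. The calculations were tested on simulated data. Named genes were all members, list members past 2-fold in a comparison or among the 3 most abundant, the isozymes HK1, PFKM, PFKP, ALDOC, ENO2 and LDHB, and PGAM1. ADPGK, PDK3, SLC16A3, MPC1, MPC2 and PGLS were named after their values were seen. Members, lists and rules were chosen with earlier results of these data known. One listed gene is not reported here and was left out of its list. Python 3.11.15, numpy 2.4.6, pandas 2.3.3, scipy 1.17.1 and matplotlib 3.10.9 were used.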

Additional observations from a re-analysis of the deposited data

How the results depend on the processing

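Alternatives were pseudocounts of 0.1 and 5, no filter, a floor of 10 RPKM, library scaling by the median of ratios or by TMM (a trimmed mean of log ratios), CPM instead of RPKM, and the sum of all transcripts with the same human match. A filter at 30 RPKM was added after the data were seen. Over these, the median log2 ratio of the 9 enzymes ranged from 0.07 to 0.11 for midbodies over mitotic microtubules, from -0.70 to -0.60 for midbodies over interphase, and from -0.62 to -0.55 for mitotic microtubules over interphase. The counts of enzymes past 2-fold changed under 1 alternative only: with transcripts summed, 2 enzymes in place of 1 stood 2-fold or more below interphase in midbodies. Of 243 values of single enzymes under an alternative, 238 stayed within the counting interval and 5 did not, all with transcripts summed (GAPDH and PKM against interphase in both other libraries, ENO1 in mitotic microtubules). Among the 238, ALDOA for midbodies over interphase changed sign, from -0.04 to 0.01 with either library scaling and to 0.06 with transcripts summed. For mitotic microtubules over interphase ALDOA changed sign only with transcripts summed, from -0.06 to 0.04. Many of the 238 could not have moved. The filter settings leave the ratio of a single enzyme unchanged, and summing leaves HK2, GPI, PFKL and LDHA unchanged, since each has 1 transcript. The counts over all transcripts depended more on the settings: for midbodies over mitotic microtubules, 274 higher and 237 lower turned into 458 and 479 when the pseudocount was 0.1, and into 99 and 31 when it was 5. Without a filter, the medians of all transcripts were 0.02 for midbodies over interphase and 0.06 for mitotic microtubules over interphase, in place of -0.15 and -0.13. No paired analysis was possible because each group had 1 library, and no library could be left out. The midbody library was the shallowest, and PDP1, PDK2 and ALDOC rested on few reads.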

Other observations

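Among 259 transcripts with a RefSeq symbol at 10 RPKM or more that were not glycolytic enzymes, the 5 nearest to the enzymes' median ratios over interphase were Ugp2, Rps4x, Dph2, Hspa9 and Mad1l1, by straight-line distance over the log2 ratios of midbodies and mitotic microtubules over interphase. Ugp2, whose enzyme makes UDP-glucose for glycogen and glycan synthesis, had 26.7 RPKM in midbodies, 26.3 in mitosis and 40.4 in interphase and was nearest, at a distance of 0.07. Rps4x, a small ribosomal subunit protein gene, had 239 RPKM in midbodies, 242 in mitosis and 355 in interphase. Hspa9, the mitochondrial chaperone gene, had 116 RPKM in midbodies, 114 in mitosis and 192 in interphase. The likeness rests on 3 libraries and on the few transcripts with a symbol.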
